A study of Mus musculus with 27 samples.

Results

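The libraries described here follow Brn3b-expressing cells of the mouse retina from embryonic day 15 (E15) to postnatal day 3 (P3). They are the 2 P3 and the 2 E15 libraries titled Brn3b HET RGC, 4 of the 27 libraries of the series, and all 4 were used. HET mice carried Brn3b AP/WT, with alkaline phosphatase (AP) at 1 allele of Brn3b and a wild-type second allele, on the C57Bl/6 strain. No retina without an AP allele is among the groups, so the description is of cells with 1 intact copy of Brn3b. AP-positive cells were pulled from dissociated retina with magnetic beads carrying an anti-AP antibody. The 2 comparison groups are AP-positive cells of Brn3b KO retinas (Brn3b AP/KO, 2 libraries at each age) and the unbound supernatant of Brn3b retinas (1 HET and 1 KO library at each age). The labels do not say whether the replicates are separate animals, litters or preparations. The p-values therefore measure the spread between replicate libraries, which may be technical. That spread was estimated over further libraries too, among them P3 libraries titled Brn3a HET and Brn3a KO. No batch or date is given, and age cannot be told apart from anything else that differed between the E15 and P3 preparations. The source names of these libraries give another gene, and those of the E15 libraries another age, than their titles, genotype and age entries, which were followed.

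Brn3b (Pou4f2) is a POU domain transcription factor that retinal ganglion cells (RGCs) switch on as they leave the cell cycle. RGCs are the output neurons of the retina: around E15 in the mouse many are newly born and extend axons towards the brain, and in the days after birth their axons have reached their targets, branch there, and the cells form dendrites, channels and synapses. In the same days rods are born in large numbers and amacrine cells mature in the surrounding retina.

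Levels are given as CPM (counts scaled to a common library total, set separately for AP-positive and unbound libraries) in each library. E15 library 1 comes before E15 library 2 and P3 library 1 before P3 library 2. Unbound values give the HET library before the KO library. Changes are log2 fold changes, P3 against E15, from edgeR's quasi-likelihood test with Benjamini-Hochberg adjustment over all genes tested, where "rose" and "fell" mean adjusted p under 0.05. For every gene whose HET values are given as a rise or fall, both libraries of the higher age lay above both of the lower. In bulk RNA fewer cells of a type and less RNA per cell cannot be told apart. The 4 libraries held 28905675 to 36286468 estimated counts. Across genes, log2 levels of replicates correlated at 0.964 (E15) and 0.968 (P3), and those of libraries of different ages at 0.902 to 0.916. Genes are not independent replicates, and these values only describe the libraries.

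The label was checked on 24 RGC markers and on lists for the other cells a bead fraction could hold. The RGC markers summed to 14058 and 8273 CPM at E15 and 5086 and 7307 CPM at P3, against 3279 to 4531 and 1625 to 1958 CPM in the unbound cells of those ages. Each HET library was therefore above both unbound libraries of its age. None of the 24 markers was at 0. Markers of microglia and macrophages, the immune cells of the retina, were far more abundant in the AP-positive than in the unbound cells. Their 20 genes summed to 1327 and 1767 CPM at E15 and 3879 and 4811 CPM at P3, against 27.7 to 28.9 CPM and 39.2 to 55.8 CPM unbound. Photoreceptor markers (20 genes) summed to 356 and 489 CPM at E15 and 6320 and 4324 CPM at P3, against 1027 to 1163 CPM and 4161 to 4656 CPM unbound. Amacrine markers (17 genes) summed to 288 and 260 CPM at E15 and 955 and 1040 CPM at P3. Retinal progenitor markers (23 genes) went from 3595 and 6774 CPM to 2367 and 1928 CPM, and cell cycle genes (28 genes) from 1587 and 3624 CPM to 1012 and 894 CPM. E15 library 2 thus held the most progenitor and cell cycle RNA of the 4 and less RGC marker RNA than E15 library 1. P3 library 1 held more photoreceptor, astrocyte and endothelial RNA and less RGC marker RNA than P3 library 2. What part these shares play in the changes below was not tested. Many counts of list members depend on single libraries. Values without a library are given beside some of the main ones only. A count given without them may also depend on a single library.

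**Figure D1:**
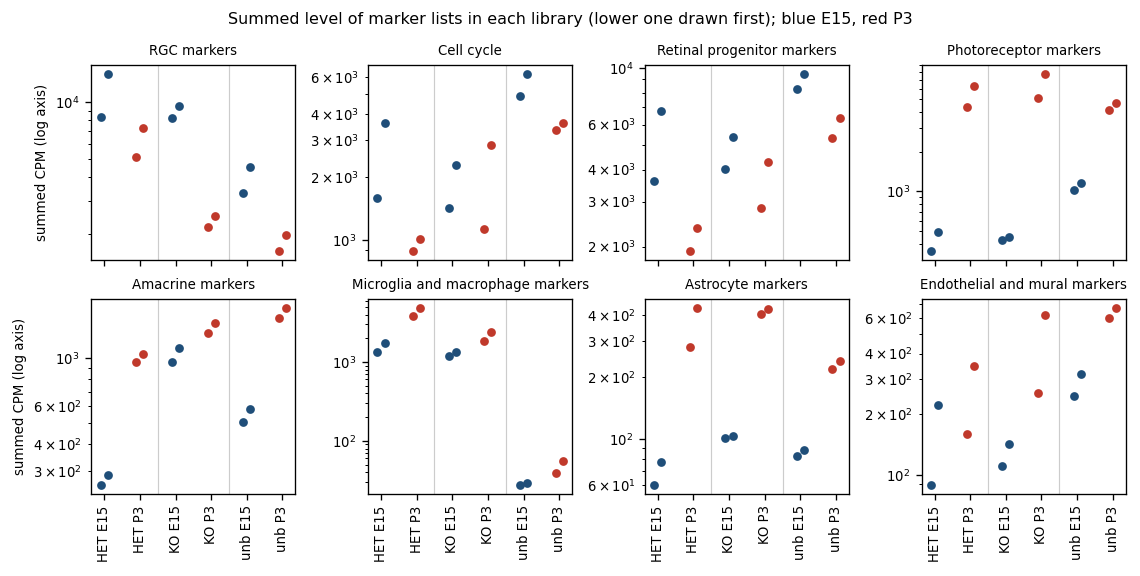
Summed CPM (log axis) of 8 marker lists in each of 2 libraries per group: Brn3b HET and KO AP-positive cells and unbound ("unb") cells at E15 (blue) and P3 (red), the lower library drawn first. RGC markers in the 2 HET libraries of each age lie above the unbound ones, microglial markers are high in all 8 AP-positive libraries, and photoreceptor markers are over 4000 CPM in every P3 library.

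Of 16673 genes tested, 4809 differed between the ages (28.8%): 2760 were higher at P3 (16.6%) and 2049 lower (12.3%). These shares are the background for every list below, and the median log2 fold change over all genes was 0.01. Of the called genes, 1941 rose and 889 fell by more than 2-fold. The count was 2904 without P3 library 1 and 2849 without P3 library 2. In the unbound cells 12.6% of 16954 genes were higher and 11% lower at P3. Of the 2760 genes that rose in HET cells, 1422 (51.5%) also rose in the unbound cells (67% of the genes that rose there), and of the 2049 that fell, 966 (47.1%) also fell there (51.8% of those). In the opposite direction, 41 of the risen genes fell in the unbound cells and 5 of the fallen genes rose.

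**Figure D2:**
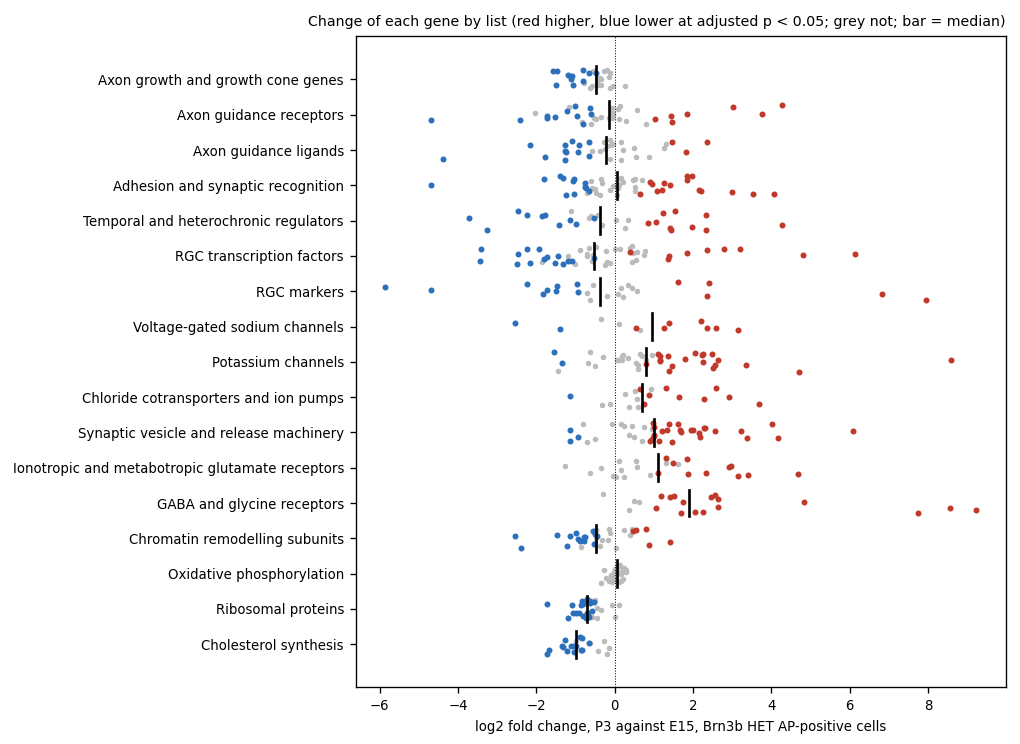
log2 fold change, P3 against E15, of every tested member of 17 gene lists in Brn3b HET AP-positive cells (1 point per gene, jittered vertically; red higher and blue lower at adjusted p under 0.05, grey not called; bar, median of the list). GABA and glycine receptors have the highest of these medians, 1.90, and cholesterol synthesis genes the lowest, -0.99.

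The 15 largest rises included many photoreceptor genes: Nr2e3, Pde6b, Rcvrn, Samd7, Pde6a, Rdh8, Fabp12, Rp1, Cnga1, Opn1sw, Prph2 and Impg1. Pax7, a paired box factor, was also among the 15. Nr2e3, a nuclear receptor of rods, was not counted in either E15 library and stood at 608 and 344 CPM at P3, at least 9432-fold higher (bound from 3 counts over the E15 group). Prph2, a structural protein of photoreceptor outer segments, stood at 0.375 and 0.753 CPM at E15 and 388 and 216 CPM at P3 (log2 fold change 9.06, SE 0.93, adjusted p = 0.000247). Opn1sw, the short-wave cone opsin, stood at 0.205 and 0.171 CPM and 158 and 142 CPM. All 15 also rose in the unbound cells, where Prph2 went from 0.363 and 1.05 CPM to 192 and 217 CPM and Nr2e3 from 0 and 0.0851 CPM to 285 and 327 CPM. For each of the 15 the difference between the HET and the unbound change had an adjusted p over 0.05. P3 library 1 was higher than P3 library 2 in all of them.

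Cntn2 (TAG-1), an adhesion molecule of growing axons, was among the 15 largest falls, at 1274 and 853 CPM at E15 and 35.5 and 47.2 CPM at P3 (log2 fold change -4.68, SE 0.30, adjusted p = 3.79e-05). It was the most abundant of the 15 at E15, and the 2 ages are far apart. Atoh7, the proneural factor that makes progenitors competent to become RGCs, went from 10.8 and 13.9 CPM to 0.323 and 0.0897 CPM (log2 fold change -5.86, SE 0.70, adjusted p = 0.000634). Acvr1c, an activin-type receptor, went from 13.4 and 10.5 CPM to 0.403 and 0.658 CPM. Fgf15, Fgf3, Sfrp2, Crabp2, Aldh1a3, Rspo1, Dio3 and Fndc3c1 also fell, and for Fgf15 and Sfrp2 the E15 libraries differed in the way their progenitor sums did: Fgf15 stood at 239 and 692 CPM and Sfrp2 at 159 and 354 CPM. At P3 they stood at 12.7 and 8.64 CPM and 9.98 and 9.84 CPM. Sp8, a zinc finger factor, fell from 12.3 and 11 CPM to 0.108 and 0.0897 CPM, the neuropeptide gene Sst from 18 and 10.1 CPM to 0.0807 and 0.389 CPM, Th, which encodes tyrosine hydroxylase, from 12.3 and 10.6 CPM to 0.457 and 0.598 CPM, and Ntn1, the guidance cue netrin-1, from 14.9 and 30.4 CPM to 0.592 and 1.58 CPM.

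Counts of Pou4f2, the gene of Brn3b, overlapped between the ages. They also occurred in KO cells, which carry no intact copy of Brn3b, so they do not measure intact Brn3b RNA alone. Pou4f2 stood at 318 and 219.6 CPM at E15 and 187 and 286 CPM at P3 (log2 fold change -0.19, SE 0.25, adjusted p = 0.615). Its estimate changed sign, to 0.08 without P3 library 1 and 0.10 without E15 library 1. In KO cells it went from 64.1 and 61.8 CPM to 21 and 18.3 CPM and in unbound cells from 53.8 and 22.9 CPM to 13.1 and 6.45 CPM, and the HET change did not differ from either beyond the threshold (adjusted p = 0.177 and 0.143). Pou4f1 (Brn3a) stood at 228 and 80.7 CPM and 168 and 249 CPM (log2 fold change 0.43, SE 0.47, adjusted p = 0.527), and its E15 libraries were the second highest and the lowest of the 4. Without E15 library 2 its log2 fold change was -0.13. Pou4f3 (Brn3c), the third family member, stood at 3.17 and 0.342 CPM and 8.04 and 9.93 CPM (log2 fold change 2.35, SE 0.69, adjusted p = 0.0295). That call was lost in each of the fits without P3 library 1, without P3 library 2 or without E15 library 2.

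RGC markers moved in both directions: of 24 tested, 5 rose and 9 fell (median -0.37). The risers were Chrna6, Thy1, Slc17a6, Nefh and Pou4f3, of which Slc17a6 and Nefh were picked out after their values were seen. Chrna6, the alpha6 subunit of nicotinic acetylcholine receptors, stood at 0.989 and 0.0342 CPM at E15 and 109 and 147 CPM at P3 (log2 fold change 7.95, SE 0.62, adjusted p = 8.17e-05). Thy1, the surface glycoprotein long used to sort RGCs, stood at 2.52 and 0.479 CPM and 139 and 205 CPM (log2 fold change 6.84, SE 0.62, adjusted p = 0.000145). Slc17a6, the vesicular glutamate transporter VGLUT2, rose from 104 and 49 CPM to 204 and 264 CPM (log2 fold change 1.61, SE 0.37, adjusted p = 0.00983), a call lost without P3 library 2. In unbound cells Chrna6 went from 0.446 and 0.454 CPM to 27.1 and 21 CPM and Thy1 from 2.51 and 0.993 CPM to 57.6 and 40.1 CPM, lower than in HET cells at P3 in both libraries. Cntn2 and Atoh7, above, were among the markers that fell. The fallen markers numbered 5 without P3 library 1, and the risen ones 3 without P3 library 2.

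Of 49 RGC transcription factors, 9 rose and 15 fell (median -0.53). Tbr1, a T-box factor of a subset of RGCs, was nearly absent at E15 (0.341 and 0.547 CPM) and stood at 24.2 and 38.8 CPM at P3 (log2 fold change 6.14, SE 0.47, adjusted p = 7.69e-05). Meis2, a homeodomain factor, rose from 22.3 and 29.9 CPM to 188 and 172 CPM (log2 fold change 2.79, SE 0.22, adjusted p = 8.17e-05). Sox11, which acts in newborn neurons, fell from 882 and 663 CPM to 120.3 and 157 CPM (log2 fold change -2.48, SE 0.18, adjusted p = 5.56e-05). Dlx1, a homeodomain factor of early retinal neurons, fell from 40.1 and 38.1 CPM to 3.2 and 3.98 CPM (log2 fold change -3.45, SE 0.15, adjusted p = 5.81e-06). In all 4 genes the HET libraries of the 2 ages are apart. In unbound cells Meis2 rose from 72.4 and 81.4 CPM to 243 and 301 CPM, above the HET libraries of each age. Dlx1 fell there from 45.6 and 91.8 CPM to 4.72 and 3.04 CPM, above the HET libraries at E15. Tbr1 was lower in unbound than in HET cells at P3, as given below. Only 5 of the factors rose in the fit without P3 library 2.

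Markers of RGC types moved in both directions: of 26 tested, 8 rose and 5 fell (median 0.69). Spp1 (osteopontin), a marker of alpha RGCs that macrophages also make, stood at 11.3 and 7.49 CPM and 97.3 and 85.4 CPM (log2 fold change 3.28, SE 0.37, adjusted p = 0.000367); unbound cells held 0 and 0 CPM and 0.368 and 0 CPM. Calb2, the calcium buffer calretinin, rose from 21.1 and 7.84 CPM to 234 and 286 CPM (log2 fold change 4.17, SE 0.50, adjusted p = 0.000464), a gene that amacrine cells express too. Serpine2, a secreted protease inhibitor, rose from 46.4 and 62.8 CPM to 143 and 120.2 CPM (log2 fold change 1.27, SE 0.16, adjusted p = 0.000579), and its change differed from that of unbound cells, which went from 55.9 and 53.2 CPM to 52.6 and 37.7 CPM (adjusted p = 0.0101). Igfbp2, an insulin-like growth factor binding protein, fell from 74.3 and 76.3 CPM to 26.6 and 17.7 CPM (log2 fold change -1.76, SE 0.20, adjusted p = 0.00038) while unbound cells went from 37 and 52.1 CPM to 40.2 and 42.3 CPM (adjusted p of the difference = 0.026). The difference for Serpine2 was lost without the unbound KO library at P3, and that for Igfbp2 in 6 of the 8 fits without 1 library. The fallen type markers numbered 3 without P3 library 2.

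Regulators that mark developmental time moved in both directions. Of 28 genes, 10 rose and 10 fell, leaving 8 not called (median -0.37). Trim71 (LIN-41), a heterochronic RNA-binding ubiquitin ligase, fell from 18.2 and 22.2 CPM to 1.37 and 1.68 CPM (log2 fold change -3.73, SE 0.26, adjusted p = 5.12e-05). Igf2bp3, an RNA-binding protein of fetal tissues, fell from 110.1 and 116 CPM to 29.1 and 33.2 CPM (log2 fold change -1.86, SE 0.14, adjusted p = 6.03e-05). Nfic, a nuclear factor I protein of later-born and maturing cells, rose from 27 and 27.7 CPM to 78.7 and 80.8 CPM (log2 fold change 1.54, SE 0.12, adjusted p = 7.86e-05), less than in unbound cells, where it went from 9.51 and 10.9 CPM to 78.9 and 65.3 CPM (adjusted p of the difference = 0.0335, lost in 7 of the 8 fits without 1 library). Lin28b, the repressor of let-7 maturation, went from 22.7 and 17.9 CPM to 3.28 and 8.59 CPM (log2 fold change -1.78, SE 0.43, adjusted p = 0.0127), a call lost without P3 library 1. Nfib, another nuclear factor I, went from 18 and 28.5 CPM to 116 and 117 CPM (log2 fold change 2.33, SE 0.39, adjusted p = 0.0022), and Mef2c, a MADS box factor of maturing neurons and also of microglia, from 25.7 and 25.4 CPM to 60.2 and 77.4 CPM (log2 fold change 1.43, SE 0.17, adjusted p = 0.000407). Unbound cells held Mef2c at 0.335 and 0.936 CPM and 1.72 and 1.53 CPM.

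**Figure D3:**
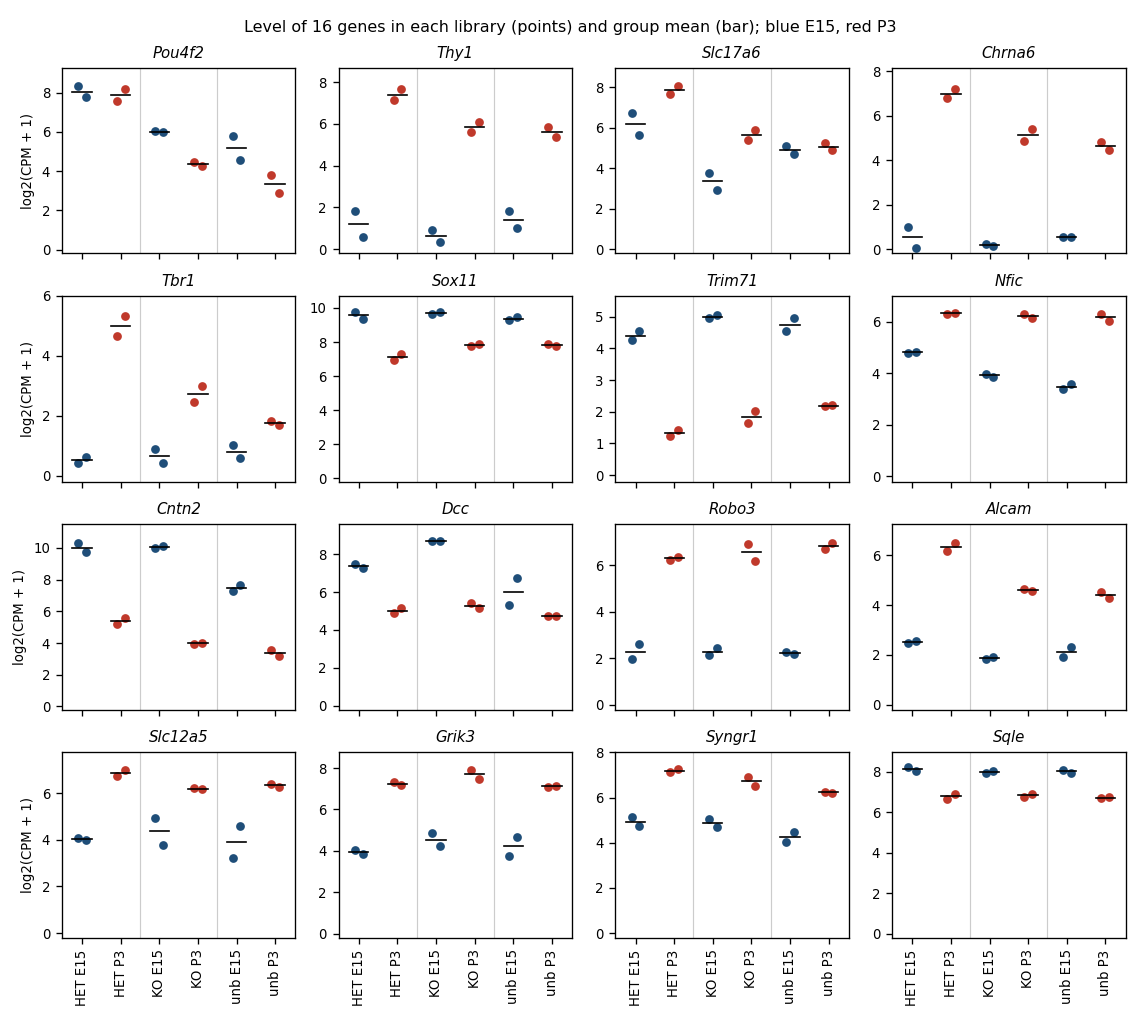
Level, as log2(CPM + 1), of 16 genes in each library (points) with the group mean (bar), for Brn3b HET, Brn3b KO and unbound ("unb") cells at E15 (blue) and P3 (red). Pou4f2 overlaps between ages in HET cells, and Tbr1 is near 0 at E15 in all groups and highest in the 2 HET P3 libraries.

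Genes of axon growth and the growth cone fell or were not called. Of 29 tested, 11 fell and 18 were not called, and 28 of the 29 estimates were negative (median -0.48). Tmsb10, an actin-binding thymosin, fell from 654 and 432 CPM to 180.3 and 185 CPM (log2 fold change -1.57, SE 0.18, adjusted p = 0.00035). Stmn1, a microtubule-destabilizing stathmin, fell from 2745 and 1902 CPM to 1038 and 1185 CPM (log2 fold change -1.06, SE 0.18, adjusted p = 0.00221), and Dpysl4, a collapsin response mediator, from 379.9 and 319 CPM to 188 and 212 CPM (log2 fold change -0.8, SE 0.17, adjusted p = 0.00672). Tubb3, the neuronal beta-tubulin, went from 2244 and 1569 CPM to 564 and 775 CPM (log2 fold change -1.51, SE 0.32, adjusted p = 0.00687), and that call was lost without P3 library 1. The fallen genes numbered 5 without P3 library 1 and 6 without E15 library 1. In unbound cells 13 of the 29 fell and 1 rose (median -0.44).

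Regulators known to set how far an injured or growing axon extends were split, with 6 of 26 up and 6 down (median -0.12). Klf7, a Krüppel-like factor that promotes growth, fell from 687 and 425 CPM to 156 and 229.6 CPM (log2 fold change -1.53, SE 0.25, adjusted p = 0.00196). Cacna2d2, a calcium channel subunit that limits growth, rose from 35.1 and 32.3 CPM to 82 and 120.1 CPM (log2 fold change 1.58, SE 0.28, adjusted p = 0.00303). Sox11, above, is in this list too. In the fit without P3 library 1, 3 rose and 3 fell.

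Guidance receptors changed in both directions, 7 of 37 up and 11 down (median -0.15). Dcc, the netrin receptor, fell from 179 and 154 CPM to 28.2 and 34.2 CPM (log2 fold change -2.41, SE 0.16, adjusted p = 3.79e-05), alongside the fall of its ligand gene Ntn1. Epha8, an ephrin-A receptor, rose from 16.1 and 30.8 CPM to 322 and 311 CPM (log2 fold change 3.75, SE 0.33, adjusted p = 0.000133), and Robo3, a divergent Slit receptor family member, rose from 2.93 and 5.1 CPM to 74.6 and 80.8 CPM (log2 fold change 4.27, SE 0.39, adjusted p = 0.000145). Both also rose in unbound cells, Robo3 from 3.88 and 3.6 CPM to 101 and 123 CPM. The fallen receptors numbered 6 without P3 library 1.

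Among guidance ligands 12 of 32 fell and 3 rose (median -0.22). Slit2, a repellent, fell from 99.9 and 90.8 CPM to 36 and 42.5 CPM (log2 fold change -1.28, SE 0.15, adjusted p = 0.000415), while unbound cells went from 81 and 95.3 CPM to 83.1 and 78.2 CPM (adjusted p of the difference = 0.0127). This difference was lost in 3 of the 8 fits without 1 library. Draxin, a repellent cue that binds netrin receptors, fell from 166 and 104 CPM to 24.5 and 35.8 CPM (log2 fold change -2.16, SE 0.31, adjusted p = 0.00105). Sema7a, a membrane-anchored semaphorin, rose from 29.5 and 19.2 CPM to 64 and 71.3 CPM (log2 fold change 1.47, SE 0.20, adjusted p = 0.000815). The fallen ligands numbered 5 without P3 library 1 and 7 without E15 library 1, and DESeq2 called 5 higher.

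Adhesion and synaptic recognition genes moved in both directions, with 15 of 51 up and 12 down (median 0.06). Alcam, an immunoglobulin-family adhesion molecule of RGC axons, rose from 4.54 and 4.93 CPM to 70.3 and 89.5 CPM (log2 fold change 4.08, SE 0.17, adjusted p = 5.81e-06). Pcdh10, a delta-protocadherin, rose from 23.4 and 15.3 CPM to 181 and 264 CPM (log2 fold change 3.52, SE 0.24, adjusted p = 4.52e-05). Cntn1, a contactin of axons and nodes, rose from 97.2 and 85.4 CPM to 299 and 361 CPM (log2 fold change 1.85, SE 0.14, adjusted p = 6.03e-05), as its relative Cntn2 fell. The rises of Alcam and Cntn1 were larger than in unbound cells, where Cntn1 stood at 108 and 136 CPM and 154 and 158 CPM (adjusted p of the differences = 0.0176 and 0.00392). Those of Cntn1 and Pcdh10 were also larger than in KO cells, which held Cntn1 at 205 and 210.3 CPM and 172 and 192 CPM (adjusted p = 0.00695 and 0.0345). The difference from unbound cells was lost for Alcam in 4 of the 8 fits without 1 library. The difference from KO cells was lost for Cntn1 without KO E15 library 1, and for Pcdh10 in 6 of 8 such fits. The fallen adhesion genes numbered 5 without P3 library 1.

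Many genes for electrical signalling rose. Of 12 sodium channel genes, the voltage-gated ones and the leak channel gene Nalcn, 7 rose and 2 fell (median 0.96). Scn1a, the alpha subunit Nav1.1, rose from 9.1 and 10.5 CPM to 34.9 and 55.6 CPM (log2 fold change 2.2, SE 0.25, adjusted p = 0.000367). The sodium leak channel gene Nalcn rose from 29.8 and 23.2 CPM to 50.9 and 76.6 CPM (log2 fold change 1.27, SE 0.22, adjusted p = 0.00259). Genes of the axon initial segment and node, among them Cntn1, Scn1a and the potassium channel genes Kcna1 and Kcnq3, counted 8 of 18 up and 1 down (Nfasc, the neurofascin gene, log2 fold change -1.32, SE 0.28, adjusted p = 0.00752). Without P3 library 2, 4 sodium channel genes and 4 segment genes rose, and 3 segment genes fell. Without E15 library 2, 2 segment genes fell, and 1 sodium channel gene fell without P3 library 1 or E15 library 1.

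Potassium channels showed 20 of 41 genes up and 2 down (median 0.80). Kcna6, a delayed-rectifier subunit, rose from 17.4 and 10.6 CPM to 54.4 and 62.8 CPM (log2 fold change 2.06, SE 0.25, adjusted p = 0.000448), and the sodium-activated channel gene Kcnt1 from 2.35 and 2.05 CPM to 10 and 17.5 CPM (log2 fold change 2.64, SE 0.34, adjusted p = 0.000615). The 2 that fell were Kcnk10 and Kcnk1, both 2-pore channels (log2 fold change -1.55, SE 0.35, adjusted p = 0.0101 and log2 fold change -1.36, SE 0.41, adjusted p = 0.0343). Of 25 calcium and hyperpolarization-activated (HCN) channel genes 6 rose and 2 fell (median 0.36). Cacna1g, a T-type calcium channel, rose from 13.9 and 12 CPM to 50.9 and 69.5 CPM (log2 fold change 2.21, SE 0.27, adjusted p = 0.000485). The call was lost for Kcnk10 without P3 library 1 or E15 library 1, and for Kcnk1 without P3 library 1, P3 library 2 or E15 library 2. No calcium or HCN channel gene was called lower without P3 library 1 or E15 library 1.

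Ion pumps and chloride cotransporters followed, with 9 of 18 up and 1 down (median 0.70). Atp1b2, a beta subunit of the sodium pump, rose from 58.1 and 67 CPM to 858 and 761 CPM (log2 fold change 3.69, SE 0.31, adjusted p = 9.58e-05). Slc12a5 (KCC2), the cotransporter that exports chloride from mature neurons, rose from 15.7 and 14.8 CPM to 105 and 127 CPM (log2 fold change 2.93, SE 0.33, adjusted p = 0.000369). The importer Slc12a2 (NKCC1) stood at 72 and 83.1 CPM and 78.9 and 106 CPM (log2 fold change 0.25, SE 0.16, adjusted p = 0.266). The member that fell was Slc12a7 (log2 fold change -1.13, SE 0.27, adjusted p = 0.0125), a call lost without P3 library 1, P3 library 2 or E15 library 2. In unbound cells the medians of these lists were 0.36 (sodium), 0.84 (potassium), 0.09 (calcium and HCN) and 0.66 (pumps and cotransporters).

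Synaptic vesicle and release genes had the largest count of rises of the neuronal lists, 26 of 41 up and 3 down (median 1.01). Nsf, the ATPase that recycles the fusion machinery, rose from 64.7 and 52.8 CPM to 176 and 196 CPM (log2 fold change 1.67, SE 0.13, adjusted p = 8.34e-05), Syngr1 (synaptogyrin 1) from 34 and 25.4 CPM to 139 and 153 CPM (log2 fold change 2.3, SE 0.21, adjusted p = 0.000141), and Sncb (beta-synuclein) from 6.72 and 2.36 CPM to 70.4 and 77.5 CPM (log2 fold change 4.03, SE 0.39, adjusted p = 0.000191). Snap25, a membrane fusion protein, rose from 301 and 161 CPM to 854 and 993 CPM (log2 fold change 2.0, SE 0.27, adjusted p = 0.00082). The members that fell were Unc13b, Syt11 and Syt13 (log2 fold changes -1.14, -0.92 and -1.13). Postsynaptic scaffold genes counted 11 of 30 up and 2 down (median 0.69), among the risen ones Camk2d at 91.9 and 69.2 CPM and 224 and 316 CPM (log2 fold change 1.75, SE 0.18, adjusted p = 0.000256) and Dlg2 (PSD-93) at 89.8 and 52.6 CPM and 288 and 355 CPM (log2 fold change 2.17, SE 0.26, adjusted p = 0.00045). Without E15 library 2 the scaffold genes that rose numbered 7, and without P3 library 1 or E15 library 1 the vesicle genes that fell numbered 1, with the calls for Syt11 and Syt13 lost. The scaffold genes that fell numbered 0 without P3 library 1 or E15 library 1 and 1 without either of the other libraries.

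Receptors for inhibitory and excitatory transmitters rose or were not called. Of 20 GABA and glycine receptor genes, 16 rose and 4 were not called (median 1.90). Gabrg1, a gamma subunit, rose from 0.682 and 0.411 CPM to 15.5 and 15.8 CPM (log2 fold change 4.83, SE 0.49, adjusted p = 0.000225), Gabra2 from 13.4 and 7.22 CPM to 57.5 and 70.5 CPM (log2 fold change 2.63, SE 0.28, adjusted p = 0.000299), and Glrb, the beta subunit of glycine receptors, from 8.9 and 11.7 CPM to 51.4 and 61.4 CPM (log2 fold change 2.45, SE 0.27, adjusted p = 0.000308). Of 25 glutamate receptor genes 11 rose and 14 were not called (median 1.10). Grik3, a kainate receptor subunit, rose from 15.5 and 13.4 CPM to 160.2 and 144 CPM (log2 fold change 3.4, SE 0.26, adjusted p = 7.69e-05), and the NMDA receptor subunits Grin2b and Grin2d rose from 8.52 and 4.89 CPM to 36.9 and 64.4 CPM (log2 fold change 2.92, SE 0.33, adjusted p = 0.00035) and from 2.86 and 2.77 CPM to 20.3 and 29.5 CPM (log2 fold change 3.14, SE 0.33, adjusted p = 0.000286). In unbound cells 9 of 20 and 12 of 25 genes were higher, with medians of 1.31 and 1.17.

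Nicotinic and muscarinic acetylcholine receptors counted 3 of 16 up and 3 down (median -0.07), shares near the background of 16.6% and 12.3%. Chrna6 rose, as given above, and so did Chrnb3, its usual partner subunit, from 16.4 and 4.17 CPM to 84 and 121 CPM (log2 fold change 3.31, SE 0.88, adjusted p = 0.0202), and the muscarinic gene Chrm5, which was not counted at E15 and stood at 0.161 and 0.987 CPM at P3 (edgeR adjusted p = 0.021). Chrnb3 and Chrm5 were picked out after their values were seen. Chrna6 (8, 27403214 to 27413944) and Chrnb3 (8, 27368711 to 27399729) are neighbours on chromosome 8 of GRCm38. Chrna3, the alpha3 subunit, fell from 308 and 199 CPM to 62.1 and 78 CPM (log2 fold change -1.85, SE 0.22, adjusted p = 0.000448), the muscarinic M3 gene Chrm3 from 39 and 24 CPM to 4.33 and 6.07 CPM (log2 fold change -2.6, SE 0.29, adjusted p = 0.000328), and Chrna4 from 218 and 167 CPM to 77 and 116 CPM (log2 fold change -1.0, SE 0.26, adjusted p = 0.0197). The last call was lost without P3 library 1 and without E15 library 1. Without P3 library 2 or E15 library 2, 1 receptor gene of the list rose: the calls for Chrnb3 and Chrm5 were both lost there, and that for Chrm5 also without E15 library 1.

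Genes of calcium sensors and of peptides were also counted. Of 16 calcium buffer and synuclein genes 8 rose and 1 fell (median 0.72). None fell without P3 library 1, P3 library 2 or E15 library 1, and 3 did without E15 library 2 or with DESeq2. Vsnl1 (visinin-like 1), a calcium sensor, rose from 4.81 and 2.12 CPM to 95.5 and 129 CPM (log2 fold change 5.02, SE 0.33, adjusted p = 3.79e-05) and Hpca (hippocalcin) from 19.9 and 14.9 CPM to 106 and 139.6 CPM (log2 fold change 2.82, SE 0.25, adjusted p = 0.000141). Of 23 neuropeptide and secretory granule genes 7 rose and 4 fell (median 0.50). Chgb (chromogranin B) rose from 100 and 66.5 CPM to 258 and 239 CPM (log2 fold change 1.58, SE 0.24, adjusted p = 0.00136), while Gal (galanin) fell from 41.3 and 29.6 CPM to 5.14 and 4.85 CPM (log2 fold change -2.83, SE 0.25, adjusted p = 0.00014) and Adcyap1 (PACAP) from 64.5 and 38.9 CPM to 9.47 and 12.4 CPM (log2 fold change -2.24, SE 0.29, adjusted p = 0.000631).

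Receptors for trophic factors counted 2 of 17 up and 5 down (median -0.64). Ngfr (p75), the low-affinity neurotrophin receptor, fell from 116 and 93.2 CPM to 34.2 and 36.9 CPM (log2 fold change -1.56, SE 0.33, adjusted p = 0.0069) while it rose in unbound cells from 29.7 and 41.8 CPM to 96.3 and 85.6 CPM (adjusted p of the difference = 0.00804). Fgfr1 fell from 40.6 and 58.6 CPM to 16.7 and 16.4 CPM (log2 fold change -1.58, SE 0.28, adjusted p = 0.00317). Lifr, the leukaemia inhibitory factor receptor, and Il6st, its co-receptor, rose, Lifr from 30.5 and 27.5 CPM to 83 and 73.1 CPM (log2 fold change 1.43, SE 0.24, adjusted p = 0.0025) and Il6st from 47.6 and 62.5 CPM to 86.3 and 97.1 CPM (log2 fold change 0.74, SE 0.15, adjusted p = 0.00629). Only 2 receptors fell without P3 library 1, and 2 without E15 library 1, and DESeq2 called 8 lower.

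RNA-binding, splicing and chromatin genes moved in both directions. Of 32 neuronal RNA-binding and splicing factors 4 rose and 9 fell (median 0.04). Elavl4 (HuD), which stabilizes neuronal mRNAs, fell from 799.7 and 504 CPM to 149.5 and 216 CPM (log2 fold change -1.83, SE 0.24, adjusted p = 0.000671), and Mbnl1, a splicing factor of mature transcripts, rose from 37.3 and 43.7 CPM to 79.4 and 89.6 CPM (log2 fold change 1.06, SE 0.13, adjusted p = 0.000555). Of 34 chromatin genes 15 fell and 5 rose (median -0.47). The DNA methyltransferase gene Dnmt3b fell from 31.1 and 33.8 CPM to 5.54 and 5.5 CPM (log2 fold change -2.55, SE 0.19, adjusted p = 6.14e-05), and the BAF complex subunit genes Dpf2 and Smarcc1 from 178 and 157 CPM to 75.8 and 75.3 CPM (log2 fold change -1.15, SE 0.13, adjusted p = 0.000415) and from 259 and 270.2 CPM to 156 and 154 CPM (log2 fold change -0.77, SE 0.11, adjusted p = 0.00105). Without P3 library 1, 3 RNA-binding genes fell, and without E15 library 1, 5 did. In the fits without P3 library 2 and without E15 library 2, 2 RNA-binding genes rose. Without P3 library 2, 8 chromatin genes fell and 2 rose.

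In 14 pairs the first gene was taken as early and the second as late in neuronal maturation, from textbook knowledge. Some pairs join genes of different families, such as Lin28b and Nfib. The share of the later gene was computed from TPM (transcript counts divided by length and scaled to a common total). TPM are per length and so allow levels of 2 genes to be set side by side. The share was higher in both P3 libraries than in both E15 libraries in 8 pairs and lower in 3. Slc12a5 made up 20.6% and 17.7% of the Slc12a2 and Slc12a5 total at E15 and 61% and 58.7% at P3. Dnmt3a made up 73.5% and 77.5% of the Dnmt3b and Dnmt3a total at E15 and 94.2% and 95.4% at P3. Scn1a went from 2.47% and 5.49% of the Scn3a and Scn1a total to 23.7% and 20.6%. Tubb4a itself was not called and overlapped between the ages, at 341 and 204 TPM at E15 and 268 and 404 TPM at P3. Its share of the Tubb2b and Tubb4a total went from 11.9% and 11.3% to 23.1% and 23.7%. The NMDA receptor pair went the other way: Grin2a, the subunit of mature synapses, was 37.6% and 32.5% of Grin2b and Grin2a at E15 and 13.2% and 17.9% at P3. So did Dpf1 of Phf10 and Dpf1, which went from 50.4% and 55.2% to 33.2% and 35.6%. Kcnc1 of Kcnc4 and Kcnc1 also did, from 66.1% and 69.8% to 52.8% and 51.4%. Grin2a itself was low, at 1.13 and 0.445 CPM at E15 and 1.4 and 3.44 CPM at P3. It was not called, with a positive estimate (log2 fold change 1.62, SE 1.19, adjusted p = 0.339), while Grin2b rose, as given above. From CPM, without length, the mean Grin2a share was 10% at E15 and 4.36% at P3. The neuronal BAF pairs Actl6a and Actl6b and Ss18 and Ss18l1, and the splicing pair Ptbp1 and Ptbp2, overlapped between the ages, with E15 library 2 lowest in all 3. All shares come from 2 libraries per age and were not tested.

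**Figure D4:**
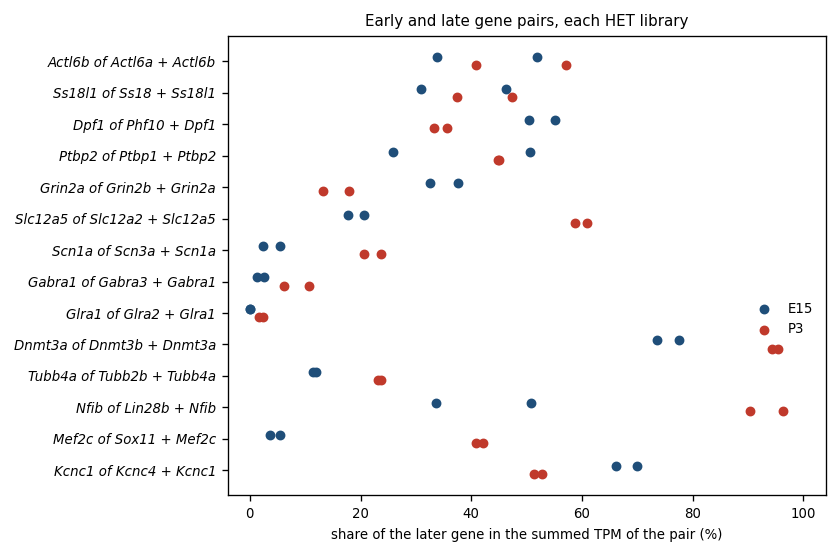
Share of the later gene in the summed TPM of 14 early and late gene pairs, in percent, for each HET library at E15 (blue) and P3 (red). Slc12a5 moves from 20.6% and 17.7% to 61% and 58.7%, while Grin2a, Dpf1 and Kcnc1 have lower shares at P3.

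Structural genes of mature axons were called about as often as all genes. Of 27 neurofilament, tubulin and motor genes 5 rose and 3 fell (median 0.02), shares near the background of 16.6% and 12.3%. Tuba4a, an alpha-tubulin, rose from 3.27 and 2.6 CPM to 13 and 23 CPM (log2 fold change 2.61, SE 0.29, adjusted p = 0.00035) and Tppp, which bundles microtubules, from 15 and 12.3 CPM to 35.1 and 46 CPM (log2 fold change 1.57, SE 0.19, adjusted p = 0.000439). Without P3 library 1 or E15 library 1, 1 of these genes fell. Among 21 apoptosis and axon injury genes, Xiap, a caspase inhibitor, rose from 94.9 and 119.8 CPM to 223 and 224 CPM (log2 fold change 1.06, SE 0.14, adjusted p = 0.000615) and Bcl2, a survival gene, fell from 21.4 and 41.5 CPM to 9.66 and 8.79 CPM (log2 fold change -1.77, SE 0.35, adjusted p = 0.00552). Bax also fell, a call lost without each of the 4 HET libraries in turn, and 18 were not called. Of 22 immediate early and dissociation stress genes, which handling of tissue is known to induce, 8 rose and 1 fell (median 0.72). Egr1 went from 245 and 319 CPM to 683 and 565 CPM (log2 fold change 1.15, SE 0.23, adjusted p = 0.00576), and the part of handling in such changes was not tested. The risen genes numbered 4, 5 and 3 without P3 library 1, P3 library 2 and E15 library 1.

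Genes of the ribosome and of energy metabolism were counted next. Of 31 ribosomal protein genes 22 fell and 9 were not called (median -0.70). Rpl11 fell from 268 and 281 CPM to 130.0 and 111 CPM (log2 fold change -1.19, SE 0.16, adjusted p = 0.000671). In unbound cells 20 of 31 fell (median -0.76). Ribosomal protein genes are known for many processed pseudogenes, so their counts are uncertain where reads could be split. The fallen ribosomal genes numbered 12 without P3 library 2. Of 31 oxidative phosphorylation genes edgeR called 0 (1 up and 1 down at unadjusted p under 0.05, median 0.05; DESeq2 called 1 lower). Of 20 glycolysis and lactate genes 4 rose and 1 fell: Aldoc, the brain aldolase, from 1.36 and 1.54 CPM to 37.6 and 27.7 CPM (log2 fold change 4.49, SE 0.30, adjusted p = 3.79e-05), Eno2, the neuronal enolase, from 25.9 and 22 CPM to 140.3 and 187 CPM (log2 fold change 2.77, SE 0.27, adjusted p = 0.000194), the glucose transporter gene Slc2a3 from 25.7 and 20.9 CPM to 53.8 and 56.7 CPM, and Ldha from 484 and 458 CPM to 1258 and 882 CPM, a call lost without P3 library 1. The one that fell was Eno1 (log2 fold change -0.67, SE 0.19, adjusted p = 0.0251), a call lost without P3 library 1, P3 library 2 or E15 library 2.

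The cholesterol synthesis pathway, which neurons run at a high rate while they build membrane, declined along most of its length. Of 21 genes 15 fell and all 21 estimates were negative (median -0.99). Sqle, the squalene epoxidase, fell from 303 and 259.5 CPM to 101 and 121 CPM (log2 fold change -1.34, SE 0.19, adjusted p = 0.00112), Hsd17b7, which acts late in the pathway, from 94.3 and 69.7 CPM to 22.2 and 27.6 CPM (log2 fold change -1.72, SE 0.21, adjusted p = 0.000473), and Sc5d, the sterol desaturase, from 67 and 58.8 CPM to 27.4 and 33.7 CPM (log2 fold change -1.04, SE 0.15, adjusted p = 0.00126). In unbound cells 13 of 21 genes fell (median -0.89), and the median in KO cells was -0.97. The fallen pathway genes numbered 6 without P3 library 1 and 9 without E15 library 1.

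Because these genes moved together, their promoters were searched in RefSeq sequence (GRCm38.p6, the 250 bases before the start), where 15 of the 21 genes had an entry, 9 of them among the 15 that fell. CCAAT, the box bound by NF-Y, which works beside the sterol-responsive SREBP factors, was present on either strand in 15 of the list's 18 promoter entries, among them the 9 of the fallen genes (some genes have several entries, and each of the 15 genes had it in 1 or more). It was present in 33.8% of all 32851 promoter entries of this length, and 2.79% held 3 or more copies. Mvk, which was not called, also held more than 3 (picked out after its values were seen). The sterol regulatory element letters TCACNCCAC, with N any base, were in 1 of the 15, Hmgcs1, and in 1.05% of all promoters. No match says only that these letters are not in the window, and a match is not a site. The 3 fallen genes with 3 CCAAT copies are shown 5′ to 3′ on the gene's strand, ending at the base before the start, with CCAAT (or ATTGG on the other strand) and TCACNCCAC in capitals. Hmgcs1, a synthase early in the pathway, lies at chr13:119690101-119690350 on the plus strand, Hsd17b7 at chr1:169969206-169969455 and Msmo1, a sterol demethylase, at chr8:64733579-64733828, the last 2 on the minus strand.
Hmgcs1: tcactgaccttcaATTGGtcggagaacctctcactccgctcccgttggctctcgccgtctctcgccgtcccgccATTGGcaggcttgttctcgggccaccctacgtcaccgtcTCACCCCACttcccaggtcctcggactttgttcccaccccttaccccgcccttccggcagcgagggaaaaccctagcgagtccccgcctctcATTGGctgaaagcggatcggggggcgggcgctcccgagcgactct
Hsd17b7: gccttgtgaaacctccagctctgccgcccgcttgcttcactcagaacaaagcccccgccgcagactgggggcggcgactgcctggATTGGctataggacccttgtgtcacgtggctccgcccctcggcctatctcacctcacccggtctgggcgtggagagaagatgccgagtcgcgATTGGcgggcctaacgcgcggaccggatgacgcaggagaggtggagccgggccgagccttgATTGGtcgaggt
Msmo1: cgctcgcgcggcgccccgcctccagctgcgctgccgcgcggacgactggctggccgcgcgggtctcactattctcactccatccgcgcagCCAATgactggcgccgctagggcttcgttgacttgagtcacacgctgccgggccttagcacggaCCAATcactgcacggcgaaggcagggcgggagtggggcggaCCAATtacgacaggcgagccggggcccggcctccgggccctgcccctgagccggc
Hmgcs1 went from 1593 and 1092 CPM to 575 and 776 CPM (log2 fold change -0.99, SE 0.26, adjusted p = 0.0184) and Msmo1 from 134 and 137 CPM to 66.6 and 82 CPM (log2 fold change -0.87, SE 0.23, adjusted p = 0.0212). These 2 were picked out for their promoters after their values were seen. Both calls were lost without P3 library 1 or E15 library 1, and that of Msmo1 also without E15 library 2.

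Among lists of other cells, 19 of 20 microglia and macrophage markers rose (median 1.47) and 14 of 17 complement and MHC class I genes did (median 1.51). The first count was 19 without each HET library in turn. Cx3cr1, the fractalkine receptor of microglia, rose from 135 and 177 CPM to 387 and 473 CPM (log2 fold change 1.46, SE 0.17, adjusted p = 0.00045). C1qb and C1qc, complement genes of microglia that lie side by side on chromosome 4 (136880129 to 136886187 and 136889804 to 136893065 in GRCm38), rose from 74.5 and 98.6 CPM to 219 and 262 CPM (log2 fold change 1.47, SE 0.23, adjusted p = 0.00144) and from 48.4 and 65.5 CPM to 174 and 203 CPM (log2 fold change 1.73, SE 0.26, adjusted p = 0.00128). Unbound cells held C1qb at 0 and 0.142 CPM and 2.27 and 1.58 CPM, and 11 of the 20 microglial markers rose there from such low levels. B2m, the light chain of MHC class I, rose from 70.1 and 79.6 CPM to 187 and 221 CPM (log2 fold change 1.45, SE 0.14, adjusted p = 0.000194) and fell in unbound cells, from 29 and 22.2 CPM to 16.4 and 17.6 CPM (adjusted p of the difference = 0.00201). The summed microglial markers rose beside all of these, and their part in the rises was not tested. In the fit without P3 library 2, 8 complement and MHC class I genes rose.

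Some astrocyte and many amacrine and endothelial genes rose. Gfap, the filament of astrocytes, went from 0.341 and 0.445 CPM to 138 and 53.4 CPM (log2 fold change 7.91, SE 0.77, adjusted p = 0.000194), with P3 library 1 the higher. Of 17 amacrine markers 12 rose and 2 fell, Th among the latter (median 3.40); Neurod2 went from 0.443 and 0.787 CPM to 17.9 and 17 CPM (log2 fold change 4.82, SE 0.43, adjusted p = 0.000133) and Tfap2c from 0.58 and 1.23 CPM to 13.8 and 12.1 CPM (log2 fold change 3.83, SE 0.44, adjusted p = 0.000383). Of 15 endothelial and mural markers 11 rose (median 2.36), 3 without P3 library 1 and 5 without E15 library 1. Of 28 cell cycle genes 14 fell and all 28 estimates were negative (median -1.46), but 1 fell without E15 library 2, 2 without P3 library 1, 2 without P3 library 2 and 23 without E15 library 1. Progenitor markers fell in 10 of 23 and rose in 1, Fabp7, a fatty acid binding protein of glia (log2 fold change 3.89, SE 0.60, adjusted p = 0.00153). Pax6, kept by RGCs and amacrine cells, fell from 791 and 761 CPM to 295 and 324 CPM (log2 fold change -1.33, SE 0.12, adjusted p = 0.000138). Without E15 library 2, without P3 library 1 and without P3 library 2, 6 progenitor markers fell in each fit, and without E15 library 1, 15 did.

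Of 19 photoreceptor markers tested 15 rose (median 6.38), and Nr2e3, Rcvrn, Pde6b and Opn1mw were at 0 in both E15 libraries. Opn1mw was also at 0 in both P3 libraries. Smaller lists of other cells were mixed. Of 13 Mueller glia markers 4 rose and 2 fell, of 9 astrocyte markers 4 rose and 1 fell, of 9 horizontal cell markers 2 rose and 3 fell, and of 11 bipolar cell markers 6 rose and 1 fell. Of 7 oligodendrocyte lineage markers 3 rose and 1 fell, 2 of 6 genes of red blood cells were up, as were 4 of 9 for pigment epithelium, and no lens crystallin of 4 was called by edgeR, at the adjusted threshold, or by DESeq2. Without P3 library 1, 1 Mueller, 2 bipolar, 0 oligodendrocyte, 0 erythroid and 2 pigment epithelium markers rose. Without E15 library 1 the risen bipolar markers numbered 2, the Mueller markers 2, and the erythroid and pigment epithelium markers 1 each. In the fit without E15 library 2, 1 oligodendrocyte, 1 erythroid and 2 pigment epithelium markers rose, and without P3 library 2, 2 Mueller markers did.

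To set the change in bead-bound cells against that in the rest of the retina, the HET change was tested against the unbound change. Of 16954 genes 180 differed (1.06%): 122 rose more or fell less in HET cells and 58 the reverse. Of the 122, 102 rose in HET cells, and 50 of these were not called and 35 fell in unbound cells. Myo5b, an unconventional myosin of membrane traffic, rose from 0.546 and 0.205 CPM to 44.2 and 67.1 CPM in HET cells (log2 fold change 7.2, SE 0.46, adjusted p = 3.78e-05) and from 1.03 and 1.11 CPM to 2.18 and 5.84 CPM in unbound cells (difference 5.28 on the log2 scale, SE 0.69, adjusted p = 0.00454). Tbr1 rose in HET cells as given above and from 1 and 0.51 CPM to 2.54 and 2.25 CPM in unbound cells (difference 4.47 on the log2 scale, SE 0.62, adjusted p = 0.00561). Tagap, a GTPase-activating protein, was not called in HET cells (13.3 and 13.9 CPM at E15 and 7.69 and 13.2 CPM at P3) and fell in unbound cells from 13 and 9.56 CPM to 0.0306 and 0 CPM (adjusted p of the difference = 0.00201). Capn3, Pmfbp1 and Aim2 completed the 6 largest; Capn3 stood at 12.8 and 12.2 CPM and 14.7 and 19.7 CPM in HET cells and went from 3.85 and 3.4 CPM to 0.214 and 0.423 CPM unbound.

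In the reverse direction Adarb2, a brain-specific member of the RNA-editing deaminase family, fell in HET cells from 38.5 and 28.3 CPM to 7.77 and 5.24 CPM (log2 fold change -2.36, SE 0.34, adjusted p = 0.00105) and rose in unbound cells from 7.23 and 10.6 CPM to 27.9 and 24.6 CPM (difference -3.93 on the log2 scale, SE 0.45, adjusted p = 0.00201). Tnc, the matrix protein tenascin C, rose in both, from 3.61 and 3.8 CPM to 15.9 and 11.4 CPM in HET cells and from 0.642 and 1.39 CPM to 51.9 and 45.5 CPM unbound (difference -3.71 on the log2 scale, SE 0.57, adjusted p = 0.00879). Spint1, Evi2a, Cd33 and Dock8 also rose more in unbound cells on the log scale. Their unbound E15 levels were 0 in both libraries for Spint1, Evi2a and Cd33 and 0.112 and 0.142 CPM for Dock8. Their HET levels were higher at both ages. Evi2a stood at 26.1 and 22.1 CPM and 57.9 and 70.5 CPM in HET cells against 0.981 and 0.449 CPM in unbound cells at P3. The summed microglial markers, given above, were likewise far higher in HET than in unbound cells at both ages. The part of microglia in these differences was not tested. The count of 180 was 85 without HET P3 library 1, 53 without HET P3 library 2, 91 without HET E15 library 1, 43 and 51 without the unbound KO and HET libraries at P3, 94 without the unbound HET library at E15 and 664 without the unbound KO library at E15. Of the genes named here, the difference was lost for Cd33 in all 8 fits without 1 library, for Aim2 in 6, for Evi2a and Pmfbp1 in 4, for Capn3 in 3 and for Tnc in 1.

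**Figure D5:**
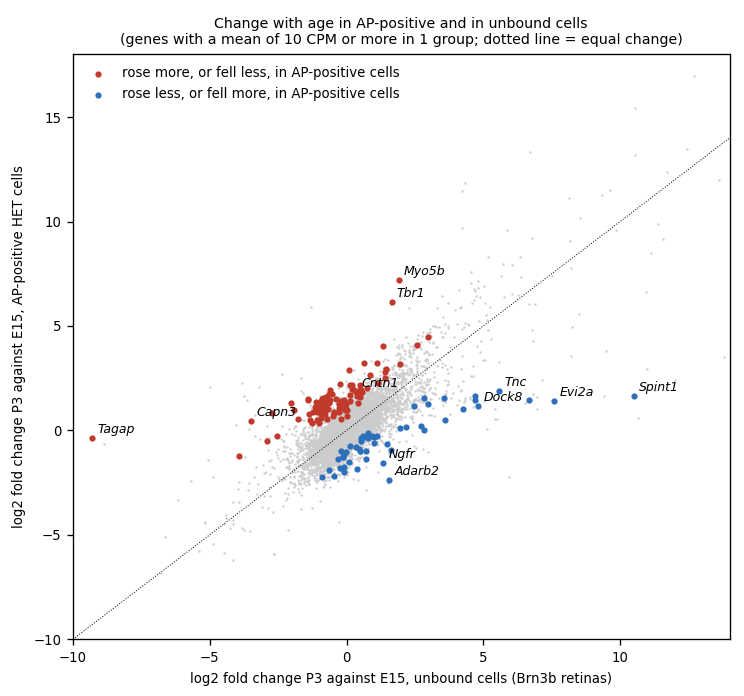
log2 fold change, P3 against E15, in HET AP-positive cells (vertical) against that in unbound cells (horizontal), for genes whose group mean reached 10 CPM in 1 or more of the 4 groups. Coloured genes differed between the 2 changes (adjusted p under 0.05; red higher and blue lower in HET cells); Myo5b and Tbr1 lie far above the dotted line of equal change and Adarb2 below it.

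The HET change was also tested against the change in Brn3b KO cells, which carry no intact copy of Brn3b. This test shares the HET libraries with every other comparison here. The marker sums of the KO libraries also differed from the HET ones. RGC markers summed to 8228 to 9459 CPM in KO cells at E15 and 2170 to 2494 CPM at P3, the latter below both HET libraries. Amacrine markers summed to 960 to 1109 CPM at E15 and 1301 to 1452 CPM at P3, above the HET sums of each age. Slc32a1 and Th, below, are on the amacrine list. What part these sums play in the differences was not tested. Of 16673 genes 32 differed (0.192%), 31 of them higher in the HET change. Of these 31, 22 fell in KO cells, and 7 rose in HET cells while they fell in KO cells. Csmd3, a large transmembrane protein, went from 4.64 and 4.76 CPM to 9.57 and 16.6 CPM in HET cells and from 25.6 and 26.2 CPM to 4.51 and 2.62 CPM in KO cells (difference 4.33 on the log2 scale, SE 0.48, adjusted p = 0.0125). Slc32a1, the vesicular transporter of GABA and glycine, rose from 1.6 and 1.27 CPM to 17.3 and 13 CPM in HET cells (log2 fold change 3.4, SE 0.33, adjusted p = 0.000191) and stood at 44.4 and 42.4 CPM and 25.5 and 25.7 CPM in KO cells (difference 4.16 on the log2 scale, SE 0.43, adjusted p = 0.0102). Th fell in both, from 12.3 and 10.6 CPM to 0.457 and 0.598 CPM and from 275 and 248 CPM to 0.946 and 1.32 CPM (difference 3.40 on the log2 scale, SE 0.33, adjusted p = 0.00695). Gsg1l, an AMPA receptor auxiliary protein, March4, a ubiquitin ligase, and Acvr1c showed the same shape: KO libraries were above the HET ones at E15, with Gsg1l at 189.9 and 179 CPM against 31.9 and 15.2 CPM, and the ages were closer in HET cells. Adarb2 was the one gene lower in the HET change; KO cells held 7 and 5.12 CPM and 9.32 and 9.78 CPM (difference -3.02 on the log2 scale, SE 0.47, adjusted p = 0.0448). The count of 32 was 1 without KO E15 library 1, 3 to 12 without HET P3 library 2, HET E15 library 2, KO P3 library 1, KO P3 library 2 or KO E15 library 2, 35 without HET P3 library 1 and 71 without HET E15 library 1. With the replicate block it was 12. Each of the 7 differences named here was lost without KO E15 library 1, and that of Adarb2 in all 8 fits without 1 library.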

How the data were processed

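The deposited table holds estimated counts per transcript, made by the authors from 76-base stranded single-end reads with Trimmomatic 0.32, Bowtie2 2.2.1 and eXpress 1.3.1 on GRCm38, per the submitters' processing notes. Whether counting used strand is not given in the sources used here, so antisense partners cannot be told apart. Here 88198 transcripts were summed into 30735 genes and rounded, and 27 symbols turned into dates were restored.

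The fit used edgeR 4.0.16 (R 4.3.3, limma 3.58.1): quasi-likelihood, TMM scaling and a minimum count of 10. All 12 AP-positive libraries of 6 groups shared the estimate of each gene's spread (16673 genes, 6 residual degrees of freedom). These include the Brn3a HET and Brn3a KO libraries at P3. The unbound comparisons used 18 libraries, among them unbound Brn3a libraries at P3 (16954 genes, 9 degrees of freedom). The script was tested on simulated data. CPM are on TMM-scaled totals. Replicate numbers did not pair the libraries (correlation of deviations -0.108 in HET cells).

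The members and the gene lists were chosen with earlier results of these data known. Named genes are the 15 largest called rises and falls with at least 10 CPM and ages that do not overlap, up to 4 members per list by p, both members of each pair, up to 6 per direction for each difference of changes, Pou4f1 to Pou4f3, and list members moving against their list. Alternatives were other scalings, DESeq2 1.42.0, no filter, a minimum log2 fold change of 1, other library sets, a replicate block and leaving out each library. Some genes that this rule names are not reported here.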

Additional observations from a re-analysis of the deposited data

Results flagged for a closer look

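For 19 results the change from E15 to P3 in HET cells differed from that in another group by the test of the difference itself (edgeR's quasi-likelihood test, adjusted p under 0.05). Values are differences of log2 fold changes.

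Against KO cells the differences were 4.34 for Csmd3, 4.16 for Slc32a1, 3.40 for Th, 3.36 for Gsg1l, 3.35 for March4, 3.21 for Acvr1c and -3.02 for Adarb2. The first 6 were higher in KO than in HET libraries at E15: March4 stood at 94 and 83.1 CPM in KO cells and 23.4 and 13 CPM in HET cells. Each of the 7 lost its call without KO E15 library 1.

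Against unbound cells the differences were 8.91 for Tagap, 5.28 for Myo5b, 4.47 for Tbr1, 3.93 for Capn3, 3.52 for Pmfbp1 and 3.35 for Aim2. In the other direction they were -8.84 for Spint1, -6.19 for Evi2a, -5.21 for Cd33, -3.93 for Adarb2, -3.71 for Tnc and -3.68 for Dock8. The values of Spint1, Evi2a and Cd33 are fitted against unbound E15 libraries at 0 and that of Tagap against unbound P3 libraries at 0.0306 and 0 CPM, so these 4 depend on the prior count and are no bounds. Cd33 lost its call without each of the 8 libraries compared in turn.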

How the results depend on the processing

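With 2 libraries per age, the counts depended on single libraries and on how the spread was estimated, and no called gene that the text names changed direction under any alternative run. Estimates of 9 genes that were not called did change sign in some fits, Pou4f1 and Pou4f2 among them. Of 4809 calls (2760 higher, 2049 lower), a minimum log2 fold change of 1 left 918 (762 and 156), which moved the share of higher calls from 57.4% to 83%, and a fit of only the compared libraries left 2949 (1833 and 1116). Leaving out 1 HET library gave 2849 to 3997 calls, 1789 to 2218 higher and 973 to 1779 lower: 2904 without P3 library 1 and 2849 without P3 library 2, with 1315 lower without E15 library 2. DESeq2 gave 5794. Of the 489 calls among listed genes the minimum change left 174, and leaving out 1 library gave 363 to 444. The replicate block gave 4642 calls. A block with the numbers crossed, chosen after seeing the data, gave 4226.

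The 32 differences from KO cells became 349 with DESeq2, 101 without a filter, 12 with the replicate block, 4 with the minimum change, 6 with only the compared libraries, and 1 to 71 without 1 library. The 180 differences from unbound cells became 795 with DESeq2, 8 with the minimum change, 20 with only the compared libraries, 373 with unbound libraries of Brn3a and Brn3b pooled, and 43 to 664 without 1 library. The replicate block gave 152. The cause was not tested.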
